A study of Homo sapiens with 2 samples.

Results

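The RGS genes of band 1q31.2 were examined in GM12878, an established human B lymphoblastoid line grown from B lymphocytes that Epstein-Barr virus had immortalised. Chromatin accessibility was assayed by ATAC-seq, in which a transposase inserts sequencing adapters into accessible DNA. The 2 libraries, of 50000 untreated cells each, were prepared from separate cultures in exponential growth and form 1 group. The list of accessible regions analysed here is 1 for both libraries and gives no value per culture, and no conditions were compared. The locus was selected on the deposited positions themselves, because a dense group of regions had been seen in the band, and comprises every region with its midpoint between 192000000 and 192900000 on chromosome 1 (hg19). This window of 0.9 Mb held 22 of the 23612 listed regions. Positions, counts and distances below are therefore descriptions without a test. The label of the line was not checked against B cell marker genes here, because positions in hg19 were used for the RGS genes only.

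Regulators of G-protein signalling (RGS proteins) act downstream of G-protein-coupled receptors, among them the chemokine receptors that steer lymphocytes. They accelerate the hydrolysis of GTP by G-protein alpha subunits and so shorten the signal. The 5 genes of the window all lie on the plus strand, in the order RGS18, RGS21, RGS1, RGS13 and RGS2. RGS1 and RGS13 are known from B cells, where RGS1 dampens responses to chemokines and RGS13 is typical of germinal centre B cells. RGS18 is known from platelets and megakaryocytes and RGS21 from taste cells, whereas RGS2 is widely expressed and acts preferentially on Gq. In the RefSeq table of GRCh38.p14, whose positions were not set against the regions, no other protein-coding gene stood between RGS18 and RGS2. The 10 other entries between them were 6 long noncoding RNAs, 3 pseudogenes and 1 microRNA (MIR4426). One of the noncoding RNAs, LOC105371664, overlapped RGS1.

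The sequences before 3 start sites are shown because these genes differ in how regions lie around them. RGS1 is the gene nearest to most regions of the window, RGS2 has a tight group at its start, and RGS13 has no region over its start. Each sequence is the 250 bases before the start on the plus strand, from RefSeq in build GRCh38.p14, at chr1:192575523-192575772 for RGS1, chr1:192808789-192809038 for RGS2 and chr1:192635897-192636146 for RGS13. The regions are in hg19, and these positions were not set against theirs. Capitals mark matches to the motifs given after the sequences.
RGS1: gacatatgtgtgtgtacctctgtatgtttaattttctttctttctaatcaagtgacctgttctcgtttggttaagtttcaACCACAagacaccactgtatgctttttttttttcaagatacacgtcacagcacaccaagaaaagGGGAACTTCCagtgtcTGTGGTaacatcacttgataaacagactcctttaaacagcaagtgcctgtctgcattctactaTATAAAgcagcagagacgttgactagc
RGS2: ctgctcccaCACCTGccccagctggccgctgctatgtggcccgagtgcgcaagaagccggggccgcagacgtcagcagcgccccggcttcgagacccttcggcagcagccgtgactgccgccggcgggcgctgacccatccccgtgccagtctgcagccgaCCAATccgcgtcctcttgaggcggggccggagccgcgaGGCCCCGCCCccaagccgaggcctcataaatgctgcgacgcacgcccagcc
RGS13: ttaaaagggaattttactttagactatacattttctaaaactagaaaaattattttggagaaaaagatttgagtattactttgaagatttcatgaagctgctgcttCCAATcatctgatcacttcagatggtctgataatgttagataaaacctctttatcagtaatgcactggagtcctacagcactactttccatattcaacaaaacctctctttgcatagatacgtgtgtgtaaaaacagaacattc

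The sequence before RGS1 held a TATA motif (TATAAA) 27 to 22 bases before the RefSeq start, the usual distance of such an element. RefSeq starts need not be the hg19 starts from which distances to regions were taken. It also held 2 matches to the RUNX motif (TGTGGT), 1 on each strand, and 1 match to a kappa B-like motif (GGG and CC with any 5 bases between them). The sequence before RGS2 held CCAAT, the E-box CAGGTG on the minus strand and a kappa B-like match on the minus strand. This kappa B-like match consisted of G and C only, and 5 of its 10 bases are free, so the name is that of the pattern only. The sequence before RGS13 held CCAAT alone. The sequences before RGS18 and RGS21, which are not shown, held 2 and 1 matches to the RUNX motif and no other. No marked matches overlapped. Both strands were searched, and of the 35116 RefSeq promoters, 10.7% held the TATA motif, 11% the RUNX motif, 54.4% the kappa B-like motif, 32% CCAAT and 17.5% CAGGTG. A further 7 motifs had no match in the 5 sequences: AP-1 (TGACTCA), CRE (TGACGTCA), the octamer (ATGCAAAT), the E-box CACGTG, ETS-IRF (GGAA and GAAA with any 2 bases between them), interferon response (GAAA and GAAA with any 2 bases between them) and EBF (TCCC and GGGA with any 2 bases between them). The last 3 can share bases with one another or with other motifs. A match is a string of letters and was not tied to binding of any factor.

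RGS2 stood apart from the other 4 genes in base composition. The 250 bases before its start had a GC content of 72.8% and 28 CpG dinucleotides, and 84.1% of promoters in the table had fewer. The corresponding sequences of RGS1, RGS18, RGS13 and RGS21 had a GC content of 39.2%, 34.8%, 32.0% and 27.2%. They held 3, 2, 1 and 1 CpG dinucleotides, against medians of 58.0% GC and 11 CpG over the table. Regions covered the starts of genes of both kinds, with RGS2 CpG-rich and RGS1 and RGS18 CpG-poor. RGS13 and RGS21, with no region at the start, were CpG-poor as well. With 5 genes, and no share of all promoters with a region, this is a description.

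**Figure D1:**
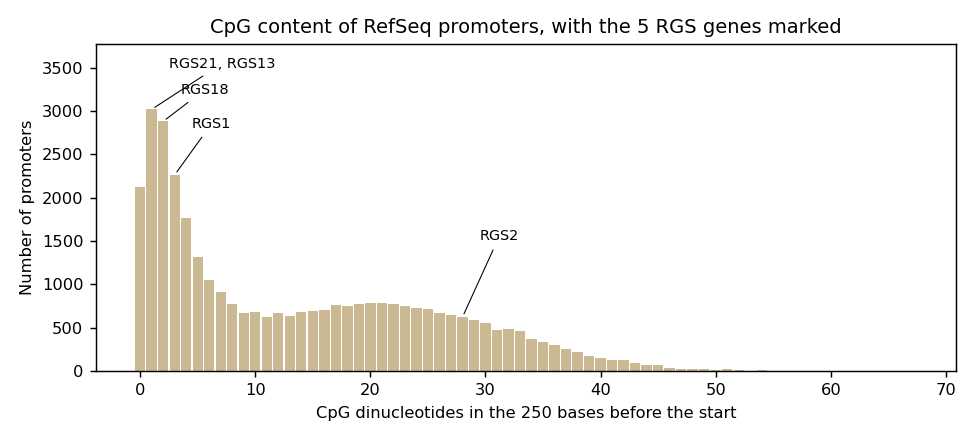
Number of RefSeq promoters (vertical axis) by their count of CpG dinucleotides in the 250 bases before the start (horizontal axis), with lines to the bars that hold the 5 RGS genes. RGS2, with 28, lies in the CpG-rich part of the distribution and the other 4 genes, with 1 to 3, in the CpG-poor part.

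Most regions of the window were nearer to RGS1 than to the other genes. By the distance from the midpoint to the nearest start site, 14 of the 22 regions (63.6%) were assigned to RGS1, 4 to RGS2, 3 to RGS13, 1 to RGS18 and 0 to RGS21. The 14 lay up to 98.6 kb from the start of RGS1. Within 10 kb of the start, RGS1 had 3 regions and RGS2 had 4. The length of the window nearest to each start was not set beside these counts. Among the 14 regions at the highest score, 8 belonged to RGS1, 3 to RGS13 and 3 to RGS2. The share of RGS1 among these was thus lower than its share of all 22 regions. In the whole list, 60.1% of regions were at that score. In covered length the order was RGS1 with 10538 bp, RGS13 with 2736 bp, RGS2 with 2664 bp and RGS18 with 469 bp. The values of RGS13 and RGS2 were close, so that RGS13 had fewer but wider regions. Most regions lay between genes, with 18 of 22 midpoints outside all 5 gene bounds. The stretch between RGS21 and RGS1, 208 kb long, held 12 regions, or 5.76 per 100 kb. The stretch between RGS18 and RGS21, 131 kb long, and the 119 kb from the end of RGS2 to the end of the window held 0 each.

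**Figure D2:**
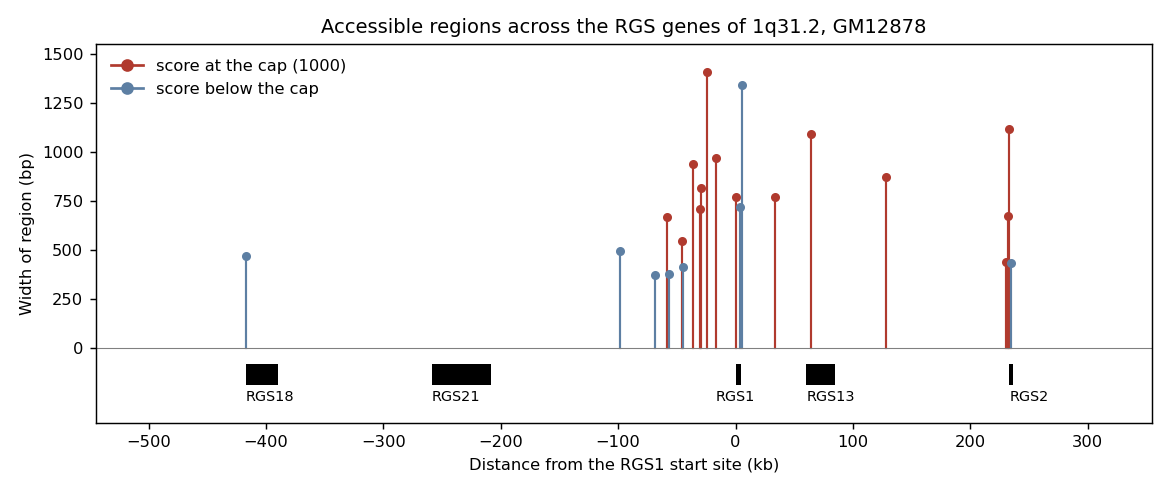
Each stem is 1 of the 22 accessible regions, placed by the distance of its midpoint from the RGS1 start site (kb) and drawn to the height of its width (bp). Red marks the highest score and blue a lower one, and black boxes are the 5 genes to scale. Regions gather before and at RGS1 and at the start of RGS2, and none lies near RGS21.

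The dense group of regions lay upstream of RGS1. When regions at most 12.5 kb apart were joined, 10 of the 22 formed 1 cluster, from 192475820 to 192529104 on chromosome 1, and no other cluster of the window reached 5 regions. This grouping depended on the joining distance: at 5 kb no cluster reached 5 regions and the largest group was the 4 regions at RGS2, while at 25 kb the cluster grew to 13 regions and took in the start of RGS1. With only regions at the highest score, the cluster held 6 regions. At 12.5 kb with all regions, the cluster's near end lay 15.8 kb before the start of RGS1, which spans 192544857 to 192549161, and its far end 69.04 kb before it. The end of RGS21 lay 139 kb away on the other side, and the starts of RGS13 and RGS2 lay 76.2 kb and 249 kb downstream. RGS1 was thus the nearest of the 5 genes to all 10 regions. Distance does not show which gene such regions act on, and no measurement in the list bears on this.

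Within the cluster, the 5 regions nearer to RGS1 were wider than the 5 farther ones. The 5 regions farthest from the gene, at midpoints 68.9, 58.7, 56.8, 45.3 and 44.5 kb before the start, were 373, 666, 376, 545 and 412 bp wide. The 5 nearest, at 36.6, 30.6, 29.5, 24.5 and 16.2 kb, were 937, 711, 817, 1406 and 970 bp wide. These sets ranged from 373 to 666 bp and from 711 to 1406 bp. The 5 nearer regions covered 4841 bp against 2372 bp for the others. The division into 5 and 5 was made after the widths were seen, and how other clusters divide was not examined. Across the 10 regions, width and position towards the gene had a Spearman rho of 0.87, as a description of neighbouring regions from 1 list. Width did not keep rising up to the gene, since the widest region of the cluster lay 24.5 kb from the start and the region over the start itself was 770 bp wide.

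Scores below the cap in the cluster lay only among the 5 regions farther from RGS1. The score is the authors' whole number per region, with a cap of 1000 and a lowest value of 541 in the list, and its scale is not named. The list is named for a threshold on the irreproducible discovery rate (IDR), a measure of agreement between replicates. The score is therefore not taken as signal strength here. All 5 regions nearest to RGS1 were at the cap, as were 60.1% of all regions in the list. The cap hides any differences among the regions that reach it. Of the 5 farther ones, those at 58.7 and 45.3 kb were at the cap and those at 68.9, 56.8 and 44.5 kb had scores of 548, 954 and 622. Spacing was uneven, with the closest neighbours separated by 277 bp and the widest step at 11.0 kb. The regions at 45.3 and 44.5 kb lay 373 bp apart, and those at 30.6 and 29.5 kb made up the closest pair.

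**Figure D3:**
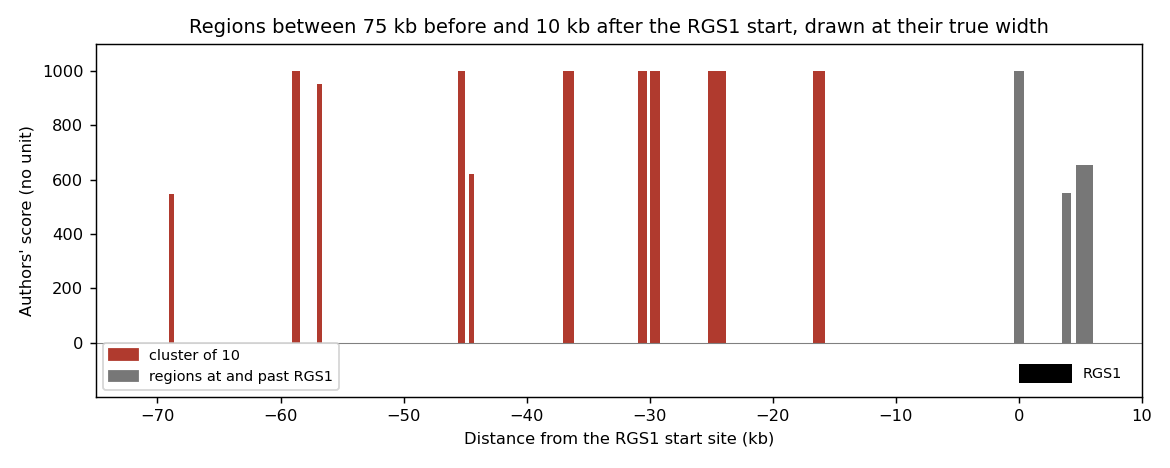
Regions from 75 kb before to 10 kb after the RGS1 start site, each drawn at its true width along the horizontal axis (kb) and to the height of the authors' score (no unit). Of the 10 regions of the cluster (red), the last 5 are wider than the first 5 and all reach 1000. The 3 grey regions lie at the start and the end of RGS1.

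At RGS1 itself, 3 further regions lay over the start, inside the end of the gene and just past it. The first, from 192544457 to 192545226 with a score of 1000, reached from 400 bp before to 369 bp after the start. The second, from 192548376 to 192549093, was 718 bp wide with a score of 552, and ended inside the gene bounds. The third, from 192549514 to 192550855, began 353 bp past the gene and was 1342 bp wide with a score of 654. The wide region past the gene thus had a low score, unlike the wide regions of the cluster. Between the cluster and the start region lay 15.4 kb without a region. A single region before the cluster, at 192446055 to 192446549, completed the 14 of RGS1; it was 495 bp wide, with a score of 666, and lay 98.6 kb before the start.

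RGS2 had a compact group of 4 regions at its 5' end. They spanned 4.74 kb, from 192774937 to 192779678, and covered 56.2% of that span, against 13.5% for the cluster upstream of RGS1. The region over the start of RGS2 (192778169) ran from 192777628 to 192778745 and was 1118 bp wide, with a score of 1000. Before it lay regions of 439 and 675 bp, both at the cap, with midpoints 3.01 and 1.63 kb before the start. A region of 432 bp, with a score of 907, lay inside the gene 1.29 kb after the start. Counting regions whichever gene they were nearest, RGS2 had 4 within 10 kb of the start and the same 4 within 100 kb. RGS1 had 3 within 10 kb and 16 within 100 kb. Of these 16, 12 had midpoints upstream, counting the region over the start, and some downstream ones were nearer to RGS13. After the last region of RGS2, 141 kb passed before the next, which lay outside the window.

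RGS13 was surrounded by single regions and had none over its start (192605268). The nearest region, 192608551 to 192609643, began 3.28 kb after the start within the gene bounds and was 1093 bp wide. Another, 770 bp wide, lay 26.7 kb before the start, between RGS1 and RGS13, and the third, 873 bp wide, lay 67.7 kb after the start, past the gene. All 3 were at the score cap, as were 60.1% of all regions in the list, and none had another region within 25 kb. The 100 kb before RGS13 held 9 regions, but RGS1 lies 60.4 kb upstream of RGS13 and 8 of these regions were nearer to the start of RGS1. Whether the cluster is shared by both genes was not tested.

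RGS18 and RGS21 stood in the part of the window with few regions. The start of RGS18 (192127592) was covered by 1 region, 192127302 to 192127770, 469 bp wide with a score of 829. It was the only region within 100 kb of that start, and the next downstream lay 318 kb on. RGS21, from 192286122 to 192336415, lay wholly in that interval, with the nearest regions 158 kb before it and 110 kb after it. No region was listed within 100 kb of its start. The depth of the libraries is unknown and the list was filtered, so the absence of a listed region does not show that chromatin there was inaccessible.

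**Figure D4:**
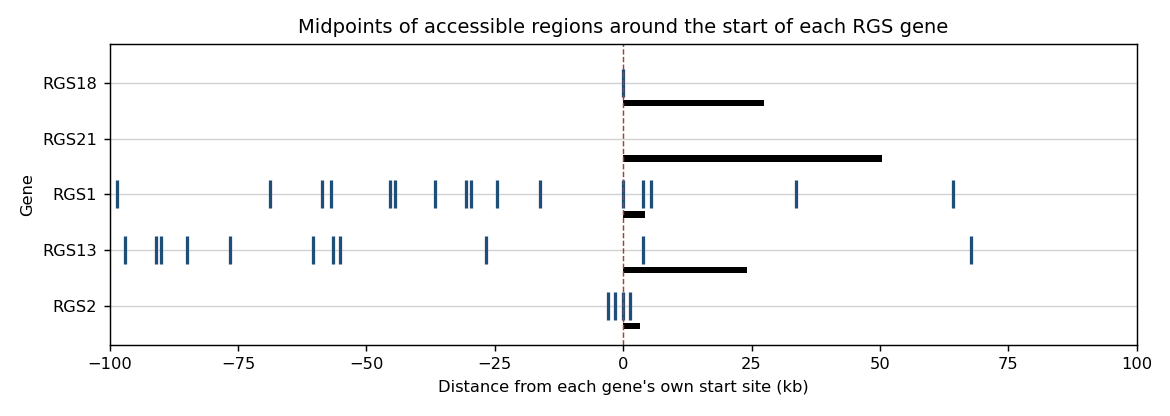
Midpoints of accessible regions (blue ticks) within 100 kb of the start site of each of the 5 genes, aligned on that start (dashed line), with gene bounds as black bars. RGS1 has 12 ticks upstream, counting the one at the start, RGS2 has 4 close to the start, RGS18 has 1 and RGS21 has none; the ticks upstream of RGS13 include those of RGS1.

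In all, 3 of the 5 start sites, those of RGS18, RGS1 and RGS2, were covered by a region, and the same count was found within 1 kb and 2.5 kb of the starts. At the score cap only RGS1 and RGS2 had one. The share of all genes of the genome with a region at the start was not analysed here, so no background is given for this count.

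The number of regions in the window was high for its length, which is how the locus was chosen. It held 24.4 regions per Mb, against 7.84 on chromosome 1 and 7.72 on the autosomes and X together, and regions covered 1.82% of it, against 0.688% of chromosome 1. Of 3363 windows of the same length laid end to end on the autosomes and X, including unsequenced stretches, 85 (2.53%) held 22 or more regions and the median was 6. Crowding was local: 9 of the 22 regions had 5 or more others within 25 kb, against a background of 2.69% in the list, and all 9 belonged to the cluster. Outside the cluster the highest count was 4. Since the rule used positions, nothing is read from these shares.

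**Figure D5:**
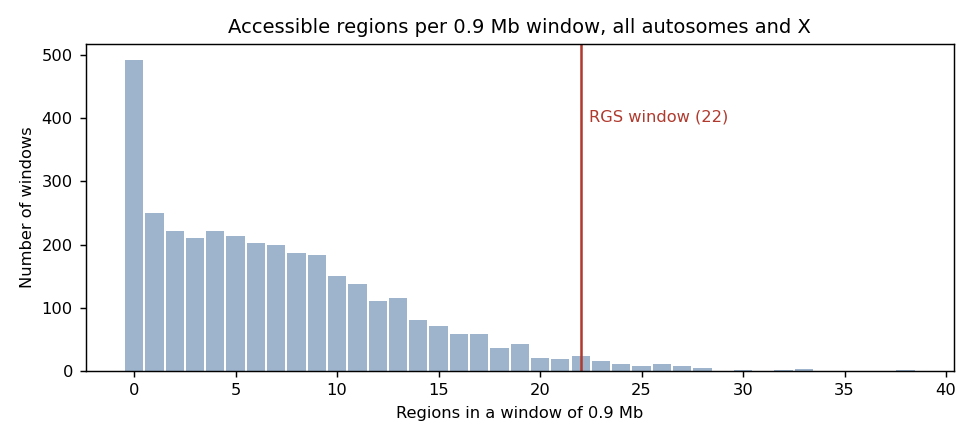
Number of windows of 0.9 Mb (vertical axis) by the number of accessible regions they held (horizontal axis), over 3363 windows laid end to end on the autosomes and X. The red line marks the RGS window with 22 regions, where 2.53% of windows held as many or more.

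Width and score, which the rule did not use, were near those of the whole list. The 22 regions were 373 to 1406 bp wide, with a median of 714.5 bp and quartiles at 475.5 and 921 bp, against a median of 756 bp in the list and quartiles at 547 and 1082 bp. At the score cap were 14 of 22 regions (63.6%), against 60.1% in the list. In the cluster 7 of 10 were at the cap and outside it 7 of 12. The cluster's regions were not wide as a set, with a median of 688.5 bp against 824 bp over the 949 regions in clusters of 5 or more. They covered 13.5% of the cluster's span, and 24 of the 163 clusters of 5 or more regions covered less of theirs, where the median was 20.4%. No test of these differences was made, because neighbouring regions are not replicates.

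At the bounds of the window the nearest regions were clear of the threshold except at the downstream end. The first region inside lay 128 kb from the upstream bound and the last inside 121 kb from the downstream bound. The last region before the window, at 191668521 to 191668895, was 375 bp wide with a score of 672. The first outside downstream, at 192920892 to 192921529, lay 21.2 kb past the bound, was 638 bp wide and had a score of 861.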

How the data were processed

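ATAC-seq libraries came from 2 cultures of GM12878, in 1 group per the labels. The authors deposited 1 list of regions in hg19 with a score per region. The submitters' processing notes list MACS2 2.1.0, BWA 0.7.13, bedtools 2.24.0, SAMtools 0.1.19, Picard 1.92, Trim Galore 0.3.3 and CASAVA 1.8.4, with no roles. The settings of peak calling and any shift of reads for the transposase were not stated there. The list is named for an IDR threshold and for mappability, mitochondrial and blacklist filters, with no further settings given. A region absent from the list may have been removed at these steps. The list holds no counts, so depth is unknown and no replicate error can be given. No region number was skipped in the window (0 of the authors' numbers missing), and no regions overlapped.

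Gene bounds in hg19 were those given with the rule for the locus, without exons. Regions were assigned by midpoint, and positions are counted from 1. Chromosome lengths came from circlize 0.4.16, and calculations used Python 3.11.15, numpy 2.4.6, pandas 2.3.3 and scipy 1.17.1, with matplotlib 3.10.9 for plots. The counting steps were tested on simulated data. Alternatives were other joining distances, reaches and start windows, and regions at the score cap only. All 5 RGS genes matched the RefSeq promoter table by symbol. A planned comparison of RGS proteins was not run, and sequence of the regions was not used here. The text names all 5 genes of the rule and their neighbours in the table. The locus, genes and lists were chosen with earlier results of these data known, and GC and CpG content was added after the data were examined.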

Additional observations from a re-analysis of the deposited data

How the results depend on the processing

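Of 21 alternatives over 10 results, all planned, 14 left a count or ratio within 1.5 times its value and 7 moved it further. These are counts, shares and ratios above 0, which could not change sign, so the tally is no measure of stability. Restricted to the score cap, the window held 14 regions, 8 of them nearest RGS1, and the largest cluster held 6 regions, again ending 15.8 kb before the start. Joining at 5 kb left 0 clusters of 5 or more regions, and the largest group was then the 4 regions at RGS2, so the gene beside the largest group changed from RGS1 to RGS2. Joining at 25 kb gave 13 regions and took in the start of RGS1. The mean number of other regions near each region of the window was 3.91 within 25 kb, 1.73 within 10 kb and 7.36 within 50 kb, as wider reaches count more neighbours. The share of windows with as many regions ran from 2.09% to 2.56%. No paired analysis was possible because both cultures share 1 list, and neither culture could be omitted. The unknown depth and the filtering of the list limit what the intervals without regions show.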

Other observations

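The window lay between unequal flanks. The 500 kb before it held 3 regions, or 6 per Mb, and the 500 kb after it held 11, or 22 per Mb. The interval without a region that led up to RGS18 was 458 kb long, from 191668896 to 192127301. In the GRCh38.p14 table the next protein-coding gene before RGS18 was BRINP3, a gene known from neural tissue, and the next after RGS2 was UCHL5, which encodes a deubiquitinase of the proteasome.

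Most regions of the window were close to a neighbour despite these long intervals. The median gap between consecutive regions was 7.10 kb in the window and 5.19 kb in the cluster upstream of RGS1, against 44.1 kb over the autosomes and X. These values follow from the positions on which the locus was chosen and are given as a description.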
